A study of Mus musculus with 8 samples.

Results

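Embryonic germ cell (EGC) lines 4 and 7 were compared with germ cells made from embryonic stem cells by a hanging drop method (iPGCs, libraries 1 and 2), which together are 4 of the 8 RNA-seq libraries of the study. The libraries were chosen by their labels, with 2 per group. Both EGC lines had been derived from sorted primordial germ cells (PGCs) of mouse embryos at E9.5. They carried the Oct4gfpXCD1 strain label, were at passage 6, and EGCs are described as grown in serum with LIF on mouse embryonic fibroblasts. About 500 EGCs and 1500 iPGCs went into each library. The iPGCs came from BVSC embryonic stem cells, a line known to carry fluorescent reporters of Prdm1 and Dppa3, and had the passage label 21. How the iPGCs were isolated from the drops is not given in the sources used here. The other groups served for the shared estimate of the spread and as reference levels: E9.5 PGCs (Oct4gfpXCD1, passage 0, about 250 cells) and PGC-like cells made in aggregates (PGCLCs, BVSC, passage 21, 300 to 500 cells). Strain, origin, passage, culture and number of cells differed together between EGCs and iPGCs, so what each of them contributed cannot be told apart. These are bulk libraries, in which fewer cells expressing a gene and less RNA per cell cannot be told apart either.

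PGCs are the embryonic precursors of eggs and sperm, and they are set apart from their neighbours by the transcription factors Prdm1, Prdm14 and Tfap2c. Placed in culture with growth factors, PGCs can revert to self-renewing pluripotent cells, the EGCs, which resemble embryonic stem cells. In the opposite direction, pluripotent stem cells can be led towards a germ cell state in culture, which is what the hanging drop and aggregate methods aim at. Germ cells also remove the parental DNA methylation marks that restrict imprinted genes to expression from 1 parental copy.

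RNA levels are given as FPKM, the authors' fragment density along each transcript, corrected for its length and for the size of the library, and were tested as log2(FPKM + 1). Of all genes in the deposited table, 11083 had at least 1 FPKM in at least 2 of the 8 libraries and were tested. Per library, 8677 and 9280 genes reached 1 FPKM in EGC lines 4 and 7, against 9836 and 10039 in iPGC libraries 1 and 2. The depths, read approximately from the steps between low FPKM values and in units of M reads, were 2.66 and 16.8 in iPGC libraries 1 and 2, 14.6 in EGC line 4 and the highest of all 8 libraries in line 7. These estimates could not be checked against read counts, and iPGC library 1, the shallowest by them, had more genes at 1 FPKM than either EGC line. Across genes, the log values of the EGC lines correlated at r = 0.784 and those of the iPGC libraries at r = 0.882.

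Between EGCs and iPGCs, 13 of 11083 genes passed the threshold of 0.05 (0.117%; limma, Benjamini-Hochberg adjusted p), 7 of them higher in EGCs (0.0632%) and 6 lower (0.0541%). With all library medians set equal the split was 9 higher and 5 lower. The higher genes were the short RNA entries Mir379, Mir758, Mir1951, PRINS and Scarna8, the pseudogene Rps3a3 and the imprinted non-coding RNA Mirg. The lower genes were the chaperone Hspa8, the protease inhibitor Spink3, the calcium-binding protein gene S100a6, the ribosomal protein genes Rps2 and Rpl3, and the short entry Mir3091. At an unadjusted p under 0.05 there were 1143 genes (10.3%), with 185 higher (1.67%) and 958 lower (8.64%). The median log2 difference over all tested genes, EGC minus iPGC, was -0.40, with 3359 differences above 0 and 7699 below, and the median standard error was 0.67. Differences of the called protein-coding genes, Mirg and Stmn2, and the list medians, are therefore also given relative to this median. The differences of all other single genes include this shift of -0.40. Both EGC values lay above both iPGC values for 1197 genes (10.8%) and below them for 4378 (39.5%), together 50.3% of all genes, which is the background for the counts of gene groups given further on. With 2 libraries a group, only large differences could be called, the smallest being 3.78 on the log2 scale.

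**Figure D1:**
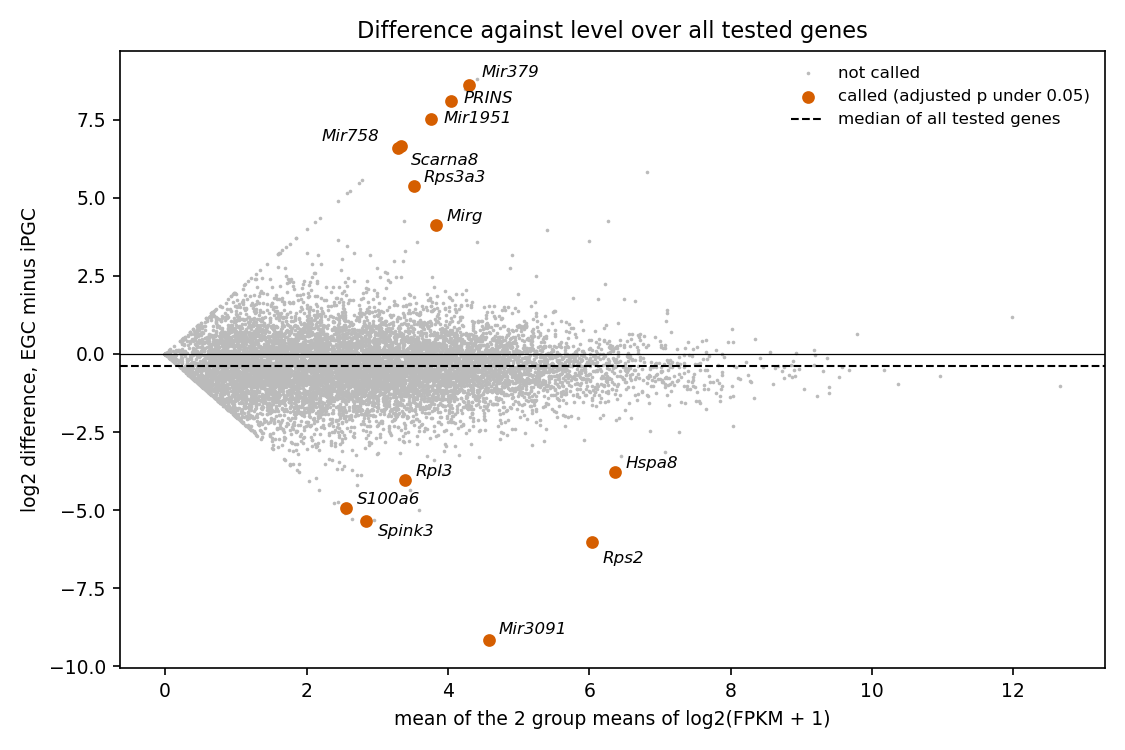
Log2 difference between EGCs and iPGCs (vertical axis, EGC minus iPGC) against the mean level of each of the 11083 tested genes (horizontal axis, log2(FPKM + 1)). Orange points are the 13 called genes, named in the plot, and the dashed line is the median of all genes at -0.40. The called genes lie at the outer edge of the cloud, and most of those at the top share a level of 0 in iPGCs.

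Hspa8, the constitutive Hsc70 chaperone that folds new proteins and uncoats clathrin vesicles, fell in EGCs. It was at 345 and 271 FPKM in iPGC libraries 1 and 2 and at 21.6 and 21.1 in EGC lines 4 and 7. In the reference groups it stood at 174 and 149 in PGCs and at 387 and 237 in PGCLCs, so both EGC lines lay below all other 6 libraries. The log2 difference was -3.78 ± 0.38 (SE, n = 2 per group; -3.37 relative to all genes, 95% interval -4.65 to -2.90), with a limma adjusted p = 0.00956. The call was lost without iPGC library 1 (adjusted p = 0.206) or 2 (0.0941) and without EGC line 4 (0.119) or 7 (0.113), and also with no variance trend (0.0614). The gene lies at chr9:40800984-40810087 (GRCm38, plus strand). Of the 36 tested heat shock and chaperone genes, Hspa8 was the only 1 called, and both EGC values lay below both iPGC values for 22 (61.1%) and above them for 0. The list's median difference was -0.58, or -0.17 relative to all genes. Hsp90aa1, the inducible cytosolic Hsp90, was at 1108 and 833 FPKM in iPGCs and 365 and 589 in EGCs (-1.05 ± 0.39, adjusted p = 0.426). Its relative Hsp90ab1 overlapped between the groups, at 768 and 618 in iPGCs and 575 and 695 in EGCs.

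Spink3, a secreted inhibitor of trypsin-like proteases known from pancreas and embryonic gut, was at 60.3 and 32.8 FPKM in iPGC libraries 1 and 2. It was listed at 0 in EGC line 4 and at 0.247 in line 7. PGCs had 1.15 and 0 and both PGCLC libraries 0, so iPGCs were the only group above 2 FPKM. Spink3 thus passed the filter on low values only through the iPGC libraries, where it is high. The log2 difference was -5.35 ± 0.64 (-4.95 relative to all genes, limma adjusted p = 0.0265). S100a6, or calcyclin, a small calcium-binding protein of dividing cells, was at 36.5 and 27.6 in iPGCs and at 0 and 0.128 in EGC lines 4 and 7. Its levels were 1.95 and 6.98 in PGCs and 16 and 12.5 in PGCLCs, so the iPGC libraries were the highest of the 8 and the EGC lines the lowest. The log2 difference was -4.94 ± 0.64 (-4.54 relative to all genes, limma adjusted p = 0.0400). Among the fits that left out 1 library, both calls remained only without PGC library 1 or 2. Leaving out any of the other 6 libraries gave Spink3 an adjusted p from 0.105 (iPGC library 2) to 0.345 (EGC line 4), with 0.273 without iPGC library 1, 0.155 without EGC line 7, and 0.126 and 0.130 without PGCLC library 1 and 2. For S100a6 the values were 0.608 and 0.348 without iPGC library 1 and 2, 0.357 and 0.166 without EGC line 4 and 7, and 0.157 without either PGCLC library. With all libraries, the call of Spink3 was lost with a pseudocount of 0.1 (0.209) and a filter at 5 FPKM (0.0565), and that of S100a6 with a pseudocount of 5 (0.0657). Without the filter on low values Spink3 had 0.087 and S100a6 0.133, and with only the 4 libraries compared both had 0.0593. Spink3 lies at chr18:43728082-43737557 (minus strand) and S100a6 at chr3:90612882-90624181 (plus strand, both GRCm38).

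Around these genes, the other secreted protease and inhibitor genes were below the threshold. Of 23 tested, 1 was called, and 11 (47.8%) had both EGC values below both iPGC values. Serpine2, an inhibitor of thrombin and plasminogen activators, was at 12.1 and 10.8 in iPGCs and at 1.05 and 0.233 in EGCs (-2.96 ± 0.61, limma adjusted p = 0.248). Cst3, the cathepsin inhibitor cystatin C, was at 71 and 69 against 17.5 and 21 (-1.82 ± 0.41, adjusted p = 0.268). Among 15 tested S100 and annexin genes, S100a6 was the only 1 called, and 7 (46.7%) lay below in both lines. S100a13 was at 45.4 and 39.0 in iPGCs and at 7.69 and 10.0 in EGCs, and S100a11 at 40.7 and 65.7 against 16.3 and 16.5, neither called. Of 7 tested gut endoderm genes, a list that holds Spink3, 3 lay below and 2 above, and the median was 0.28 relative to all genes. Trh, the precursor of thyrotropin-releasing hormone, is on that list too and lay higher, at 12.9 and 6.20 in iPGCs and 109 and 72.9 in EGC lines 4 and 7 (3.17 ± 0.76, limma adjusted p = 0.289).

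Stmn2, which encodes the microtubule-destabilizing stathmin 2 of growing neurons, was not called. It was at 20.3 and 5.80 FPKM in iPGC libraries 1 and 2 and at 38.2 and 27.9 in EGC lines 4 and 7, with no overlap, against 0.0535 and 0.0606 in PGCs. The difference was 1.49 ± 0.69 (1.89 relative to all genes, 95% interval -0.09 to 3.06, limma adjusted p = 0.508). Of 15 tested neural genes, Stmn2 included, 9 (60%) had both EGC values above both iPGC values, beside 10.8% of all genes. Of the others 1, Uchl1, lay below and 5 overlapped, and 0 of the 15 were called. The median was 0.72, or 1.12 relative to all genes, and the relative value lay between 0.90 and 1.52 in the 4 pairs of 1 EGC and 1 iPGC library. Adam23, a neuronal membrane protein that binds integrin and the synaptic protein Lgi1, had the largest difference, at 0.908 and 1.95 in iPGCs and 37.8 and 52.0 in EGCs (4.26 ± 0.61, limma adjusted p = 0.0662). Pax6, the eye and forebrain transcription factor, was at 0.158 and 0.0712 against 5.29 and 4.79 (2.44 ± 0.56, adjusted p = 0.279). The neurofilament gene Nefl was at 2.36 and 1.01 FPKM against 11.7 and 4.97. Elavl4, a neuronal RNA-binding protein, was high in EGC line 4 alone, at 13.1 against 0.0762 in line 7. Pax6, Crmp1, Elavl4 and Neurod1, all with both EGC values above, passed the filter on low values only with an EGC line counted. The share of neural genes above and their median therefore depend in part on that filter.

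**Figure D2:**
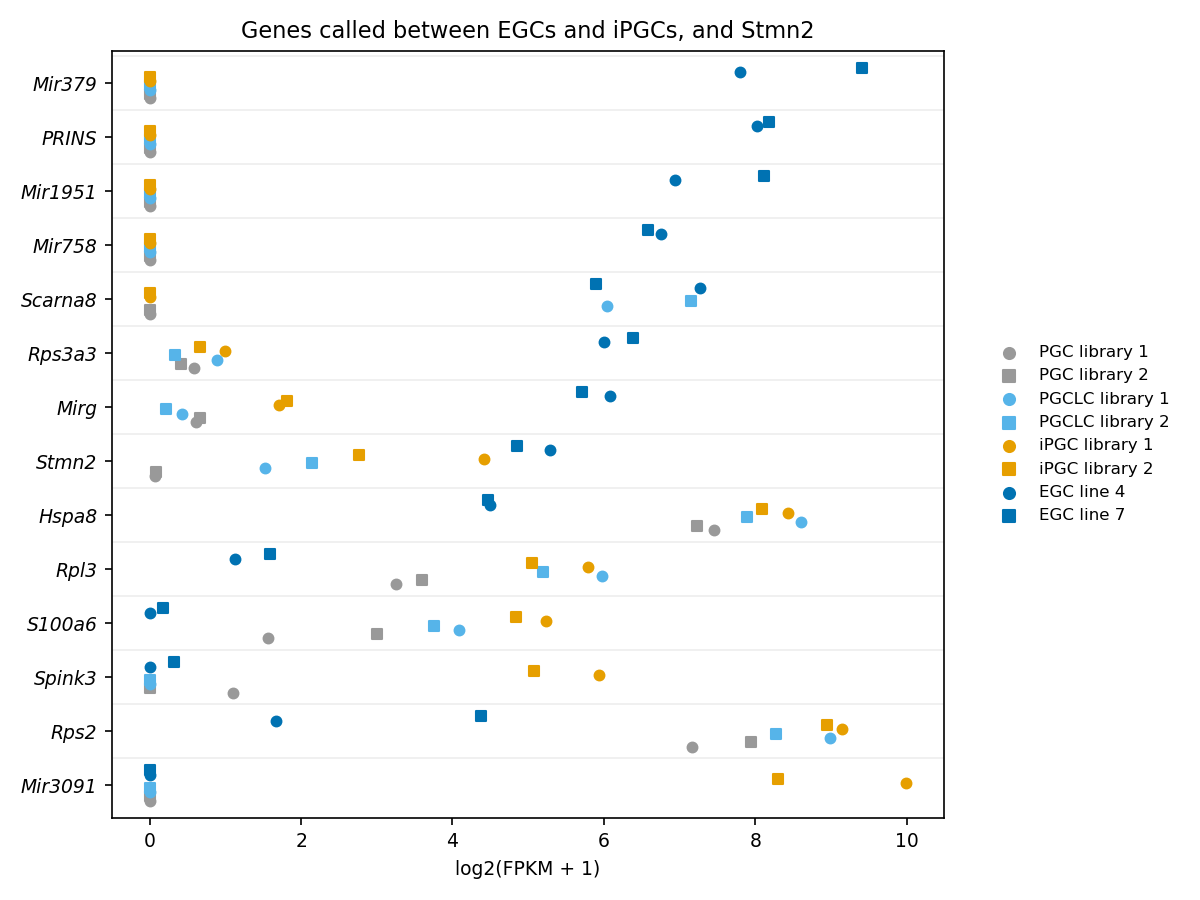
Level of the 13 called genes and of Stmn2 in every library, on a log2(FPKM + 1) axis. Colours mark the groups and shapes the library or line number. The EGC points stand at the right of all others for 6 of the called genes and for Stmn2, which was not called, Hspa8, S100a6 and both ribosomal protein genes have the EGC points at the left of the other 6 libraries, and Scarna8 shares its high values with PGCLCs.

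Mirg, a long non-coding RNA that hosts many microRNAs at the end of the imprinted Dlk1-Dio3 region and is normally expressed from the maternal copy, rose in EGCs. It was at 66.8 and 51.4 FPKM in EGC lines 4 and 7 and at 2.27 and 2.52 in iPGCs, with 0.534 and 0.587 in PGCs and 0.350 and 0.164 in PGCLCs. The EGC lines were thus above all other 6 libraries. The log2 difference was 4.13 ± 0.56 (4.54 relative to all genes, limma adjusted p = 0.0461). Among the fits that left out 1 library, the call remained only without PGC library 1 or 2 (0.0396 each). The adjusted p was 0.637 and 0.462 without iPGC library 1 and 2, 0.357 and 0.164 without EGC line 4 and 7, and 0.142 and 0.136 without PGCLC library 1 and 2. It was also lost with a pseudocount of 0.1 (0.209), no filter on low values (0.087), a filter at 5 FPKM (0.0565), no robust variance (0.056) and only the 4 libraries compared (0.0593). The gene spans chr12:109729764-109749460 (GRCm38, plus strand). Its neighbours on the same maternal copy, Meg3 and Rian, were listed at 0 in both iPGC libraries and in EGC line 4, and at 0.00378 and 0 in line 7, and Dlk1 and Dio3 were listed at 0 in all 8 libraries.

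Of the 4 called microRNA entries, Mir379 and Mir758 lie upstream of Mirg in the same region. Mir379 (chr12:109709060-109709125) was at 222 and 677 FPKM in EGC lines 4 and 7, and Mir758 (chr12:109712810-109712890) at 107 and 94.5. Mir1951 (chr2:115638725-115638813), in an intron of BC052040, was at 122 and 277. All 3 were listed at 0 in the other 6 libraries. Mir3091 (chr2:180257536-180257611), in an intron of the ribosomal protein gene Rps21, was the reverse: 1016 and 315 in iPGC libraries 1 and 2, and listed at 0 in the other 6. The mature sequences of these hairpins, from RefSeq (GRCm38.p6), are shown because a microRNA finds its targets by bases 2 to 8, the seed, given in capitals.
mmu-miR-379-5p: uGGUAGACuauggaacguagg
mmu-miR-379-3p: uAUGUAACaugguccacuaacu
mmu-miR-758-5p: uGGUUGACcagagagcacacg
mmu-miR-758-3p: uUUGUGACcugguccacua
mmu-miR-1951: gUAGUGGAgacugguguggcua
mmu-miR-3091-5p: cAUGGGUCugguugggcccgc
mmu-miR-3091-3p: cGGGCCUGaccagucucaagac
The 7 sequences carry 7 different seeds. The FPKM of such an entry counts reads of amplified total RNA at the short hairpin locus, including any from a longer host transcript, and is no measure of the mature microRNA.

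The log2 differences were 8.60 ± 0.67 for Mir379, 6.67 ± 0.54 for Mir758, 7.53 ± 0.62 for Mir1951 and -9.15 ± 0.68 for Mir3091, each with a limma adjusted p = 0.00236. Because 1 group is listed at 0 in each case, these values depend on the pseudocount and no fold is given. All 4 entries passed the filter on low values only through the 2 libraries of the group where they are high. The calls of Mir758 and Mir1951 were lost without iPGC library 1 (0.0669 and 0.065) and 2 (0.0582 and 0.0564). Of the host genes, BC052040 overlapped between the groups, at 6.91 and 13.4 in iPGCs and 8.24 and 8.27 in EGCs. Rps21 was at 337 and 291 in iPGCs against 112 and 239 in EGC lines 4 and 7 (-0.93 ± 0.53, limma adjusted p = 0.585). With Mir3091 listed at 0 in both reference groups, Rps21 was at 292 and 134 in PGCLCs and at 48.1 and 82.2 in PGCs. Whether the entries follow their host genes was not tested.

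Across the Dlk1-Dio3 region (chr12:109452823-110281097) the table held 49 microRNA entries. At least 1 FPKM was reached by 7 of them in EGC line 4, 9 in line 7, 4 in both and 12 in either, and by 0 in either iPGC library. Counting all 63 entries of the region, 13 reached 1 FPKM in either EGC line, and 1, Mirg, in either iPGC library. Mir544, just before the start of Mirg, was at 945 and 213 in EGC lines 4 and 7 and at 761 in PGC library 1, and Mir453, inside Mirg, at 1632 and 80.1 and listed at 0 in the other 6 (limma adjusted p = 0.0534). Like Mir379 and Mir758, Mir453 passed the filter on low values only through the EGC lines. Among the 471 microRNA entries outside the region, 66 reached 1 FPKM in either EGC line and 45 in either iPGC library. Over all 520, 7 had at least 1 FPKM in both EGC lines and less in both iPGC libraries, and 2 the reverse. Only 5 of the 63 entries entered the test.

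**Figure D3:**
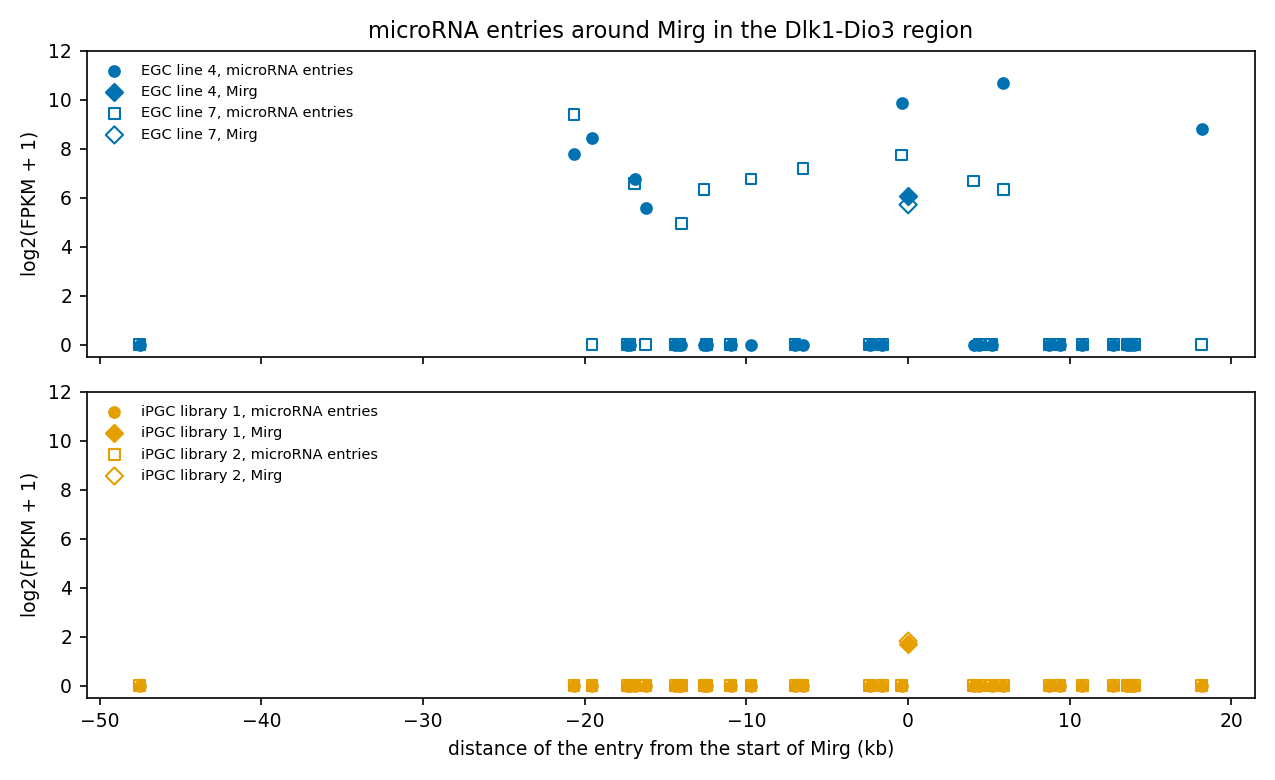
Levels of the microRNA entries of the Dlk1-Dio3 region and of Mirg (diamonds, placed at its start), on a log2(FPKM + 1) axis, by distance from the start of Mirg in kb. The upper panel shows EGC lines 4 and 7 and the lower panel iPGC libraries 1 and 2. In EGCs 12 microRNA entries leave the baseline in at least 1 line, 4 of them in both, and in iPGCs 0 do.

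Among the other short entries, PRINS, an 89-base non-coding RNA entry that GENCODE M21 names Gm27446, in an intron of Etl4 (chr2:20559804-20559892), was at 258 and 288 FPKM in EGC lines 4 and 7 and listed at 0 in the other 6 libraries (8.10 ± 0.55, limma adjusted p = 0.00236). It passed the filter only through the EGC lines. Etl4 itself was at 172 and 93.0 in EGCs and 22.4 and 60.1 in iPGCs (1.75 ± 0.57, limma adjusted p = 0.364). In PGCLCs, where PRINS was listed at 0, Etl4 was at 60.1 and 101. Scarna8, a guide RNA for modifying spliceosomal RNA in Cajal bodies, was at 154 and 58.6 in EGCs and listed at 0 in iPGCs and PGCs (6.59 ± 0.66, adjusted p = 0.00943). PGCLCs had 64.8 and 141, so its high level was shared with a group made from the same stem cells as the iPGCs. The call was lost without iPGC library 1 (0.123) or 2 (0.0941) and without EGC line 4 (0.119), and with only the 4 libraries compared (0.0509). FPKM of loci shorter than a sequenced fragment is uncertain, and 6 of the 13 called genes are under 200 bases. Without the 70 tested genes of that length, 2 of 11013 genes were called, Hspa8 and Rps3a3 (limma adjusted p = 0.0448 each), an alternative chosen after the data were seen. Of these 2, Rps3a3 passed the filter on low values only through the EGC lines, where it is high. Spink3, S100a6, Rps2, Rpl3 and Mirg then had adjusted p = 0.0645, 0.0732, 0.0732, 0.076 and 0.0778.

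The ribosomal protein genes Rps2 and Rpl3, parts of the small and the large subunit, fell in EGCs. Rps2 was at 567 and 492 FPKM in iPGCs and at 2.17 and 19.8 in EGC lines 4 and 7, with 143 to 507 in the other 4 libraries (-6.03 ± 0.78, -5.62 relative to all genes, limma adjusted p = 0.0400). Rpl3 was at 54.2 and 32.1 against 1.19 and 2.02, with 8.5 to 61.9 in the other 4 (-4.05 ± 0.54, -3.65 relative to all genes, adjusted p = 0.0445). Rps3a3, a processed pseudogene of the small-subunit gene Rps3a1 inside an intron of Pde4d (chr13:108670603-108671397), rose, from 0.99 and 0.588 in iPGCs to 63.3 and 82.7 in EGCs, and was under 1 in the other 4 libraries (5.37 ± 0.58, adjusted p = 0.0134). Its parent Rps3a1 lay lower, at 19.5 and 23.8 in EGCs and 90.4 and 57.4 in iPGCs (-1.70 ± 0.46, adjusted p = 0.299). Reads of ribosomal protein genes and their many pseudogenes cannot be fully told apart, so the values of Rps2, Rpl3 and Rps3a3 are uncertain. The filter on low values was passed by Rps3a3 only through the EGC lines. Among the fits that left out 1 library, the call of Rps2 remained only without EGC line 7 (0.0145), and its adjusted p was 0.0501 and 0.0506 without PGC library 1 and 2, 0.0753 without EGC line 4, 0.426 and 0.301 without iPGC library 1 and 2, and 0.175 and 0.178 without PGCLC library 1 and 2. Rpl3 likewise remained called only without PGC library 1 or 2, with 0.722 and 0.283 without iPGC library 1 and 2, 0.357 and 0.155 without EGC line 4 and 7, and 0.142 and 0.136 without PGCLC library 1 and 2. Rps3a3 lost its call without iPGC library 1 (0.206) or 2 (0.221) and EGC line 4 (0.111) or 7 (0.124), and with a pseudocount of 0.1 (0.112). Rps2 also lost it with a pseudocount of 0.1 (0.0797), no filter on low values (0.187), no variance trend (0.0815) and only the 4 libraries compared (0.178). For Rpl3 these settings were a pseudocount of 5 (0.103), no filter (0.133), equal medians (0.0524), no variance trend (0.0614) and only the 4 libraries compared (0.11).

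Over 81 tested cytosolic ribosomal protein genes, a list chosen after the values were seen, 2 were called lower, 50 (61.7%) had both EGC values below both iPGC values and 7 (8.64%) above. The median difference was -0.73, or -0.32 relative to all genes. Rpl29 was among the lowest in EGCs, at 0.56 and 1.92 against 56.5 and 79.5 in iPGCs (-5.00 ± 1.02, limma adjusted p = 0.248). Rpl32 stood for the larger number of members with a moderate difference, at 407 and 458 against 1145 and 926. The list summed to 16400 and 13600 FPKM in iPGC libraries 1 and 2, 7464 and 9587 in EGC lines 4 and 7, 8330 and 9842 in PGCs, and 19460 and 10570 in PGCLCs.

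Early PGC genes had lower values in EGCs for most members, though 0 of the 18 tested were called. Both EGC values lay below both iPGC values for 14 (77.8%), beside 39.5% of all genes, and above for 1. At an unadjusted p under 0.05 there were 9 lower and 0 higher. The median difference was -1.52, or -1.12 relative to all genes, and the relative value ran from -1.45 to -0.71 over the 4 pairs of 1 EGC and 1 iPGC library. Prdm1, the repressor that silences the somatic programme in PGC precursors, was at 21.2 and 22.8 FPKM in iPGCs and at 2.34 and 2.20 in EGCs (-2.82 ± 0.57, limma adjusted p = 0.248). Tfap2c, its partner in PGC specification, was at 26.9 and 34.4 against 5.77 and 5.99 (-2.19 ± 0.45, adjusted p = 0.248). Prdm14, which holds off DNA methylation and supports pluripotency, was at 4.29 and 10.6 against 0.949 and 1.38. In PGCs these 3 genes stood at 14.9 and 42.5, 23.1 and 30.2, and 6.17 and 7.39.

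Dppa3, or stella, which protects DNA from demethylation in the early embryo, was at 423 and 317 FPKM in iPGC libraries 1 and 2 and at 40.3 and 101 in EGC lines 4 and 7 (-2.5 ± 0.51, limma adjusted p = 0.248). It was the most abundant of the list in iPGCs. Prdm1 and Dppa3 are the genes of the BVSC reporters, and whether these were used to isolate the iPGCs was not tested. Ifitm1, an interferon-induced membrane protein of migrating PGCs, was at 232 and 316 against 14.5 and 50.7 (-3.26 ± 0.58, adjusted p = 0.179). The chemokine receptor gene Cxcr4, which guides PGCs to the gonads, was at 7.55 and 2.80 in iPGCs and listed at 0 in both EGC lines. The receptor tyrosine kinase gene Kit lay closer, at 18.1 and 21 against 9.59 and 11.3 (-0.85 ± 0.57), and Nanos3, an RNA-binding survival factor of PGCs, overlapped, at 0.737 and 2.13 against 0 and 0.906. Lin28a, which blocks let-7 processing, was the 1 gene of the list with both EGC values above, at 38.5 and 48.3 against 25.4 and 19.5 (0.92 ± 0.55).

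Later germline genes, many of them silenced by promoter methylation in somatic cells, had a similar order. Of 24 tested, 0 were called, 14 (58.3%) lay below in both EGC lines and 2 above, and the median was -0.59 relative to all genes. Tuba3a, a testis tubulin, was at 12.9 and 19.3 FPKM in iPGCs and 0.285 and 0.939 in EGCs (-3.41 ± 0.67, limma adjusted p = 0.248). It overlaps an exon of another gene on the opposite strand, and strand use in counting is not given in the sources used here. Smc1b, the meiotic cohesin subunit, was at 9.84 and 8.96 against 0.602 and 0.959. Brdt, a testis bromodomain protein, was at 4.01 and 4.32 against 0 and 0.102. Dazl, an RNA-binding protein that licenses germ cells for meiosis, was at 4.26 and 7.00 against 1.12 and 0.805. These 3 genes were at or under 0.546 FPKM in both PGC libraries.

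**Figure D4:**
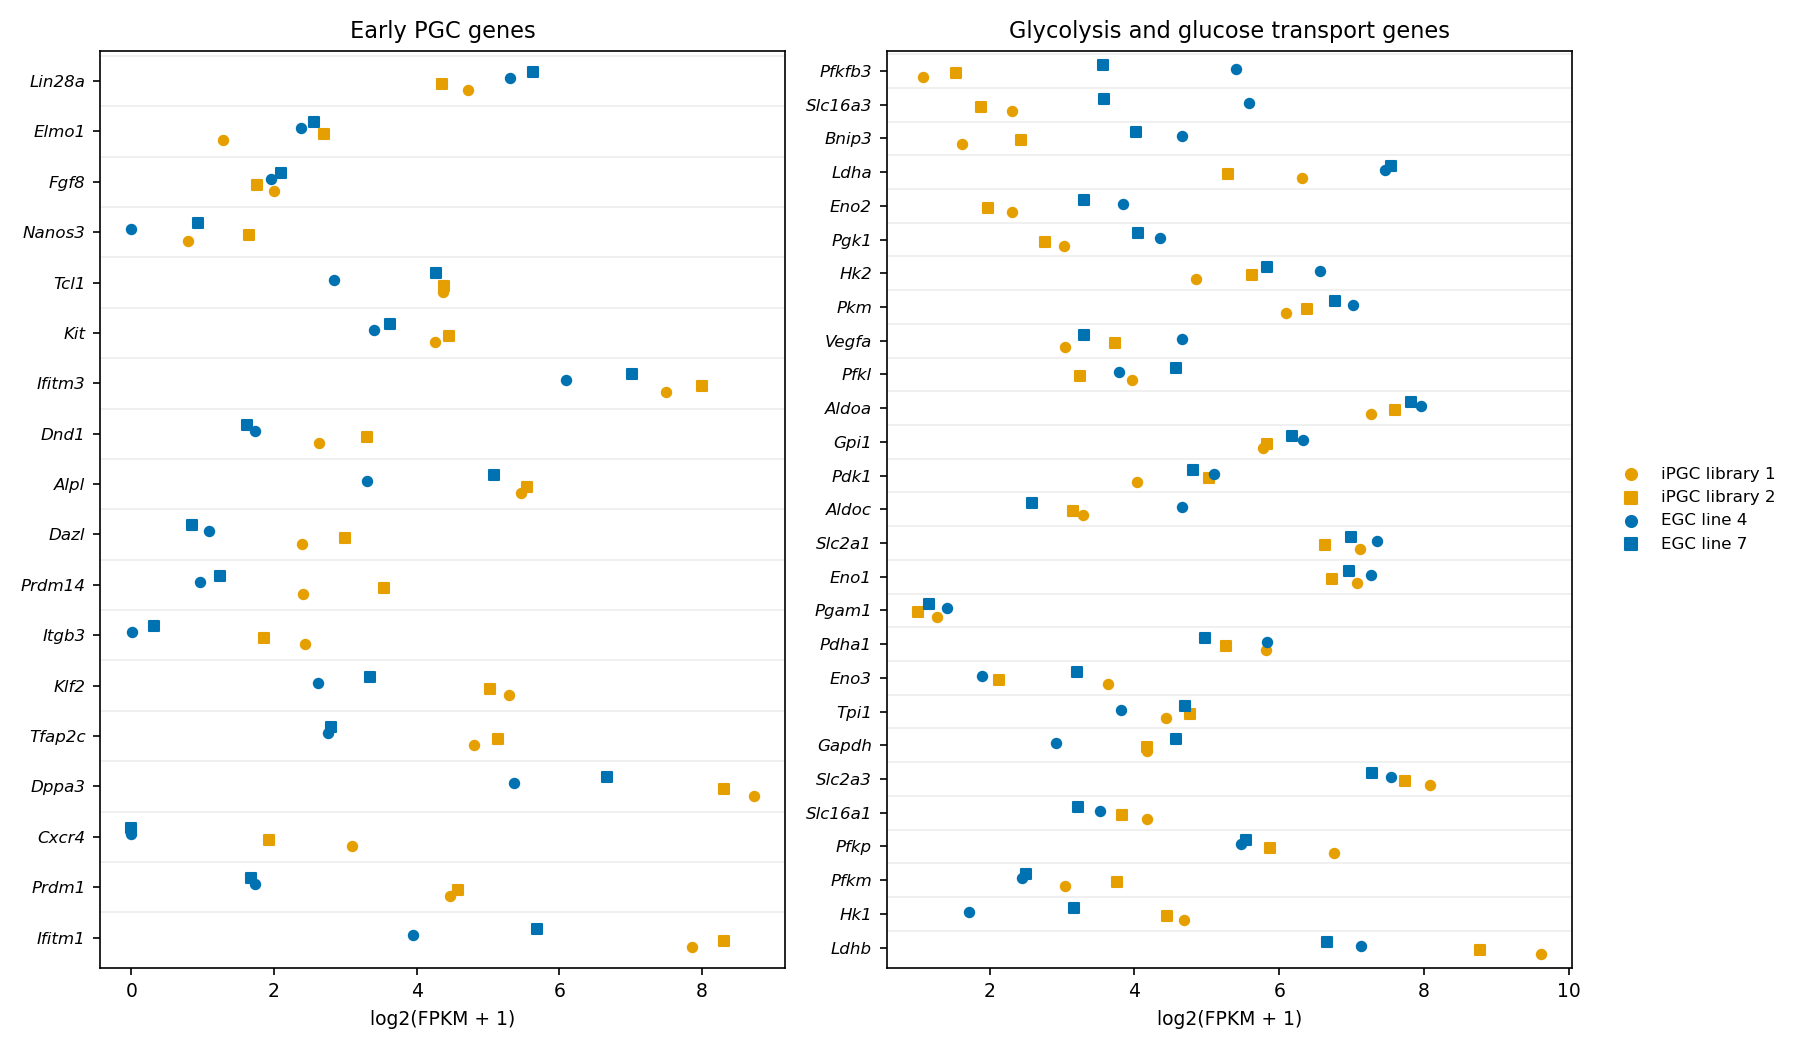
Levels of the 18 tested early PGC genes (left) and the 27 tested glycolysis and glucose transport genes (right) in iPGC libraries 1 and 2 (orange) and EGC lines 4 and 7 (blue), on a log2(FPKM + 1) axis, ordered by the difference. On the left the EGC points lie at the lower side for 14 genes, and on the right at the higher side for 10 and the lower side for 6.

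The defining markers of pluripotency were present in both groups, and 0 core pluripotency genes were called. Pou5f1 was at 83.5 and 65.8 FPKM in EGC lines 4 and 7 and at 89.9 and 89.0 in iPGCs, a difference of -0.27 ± 0.84 with a 95% interval of -2.18 to 1.64. Nanog was at 46.9 and 45.3 against 73.2 and 90.9 (-0.81 ± 0.48), and Sox2 at 10.8 and 17.7 against 24.6 and 26.8 (-0.85 ± 0.45). Of 18 tested core genes, 6 (33.3%) lay above and 8 (44.4%) below, beside 10.8% and 39.5% of all genes. The median of 0.16 relative to all genes had its sign in 16 of 18 settings. Tdgf1, the Nodal co-receptor Cripto, was the exception in size, at 189 and 145 in EGCs and 14.2 and 6.54 in iPGCs (3.96 ± 0.69, limma adjusted p = 0.163). Its level was 0.534 and 4.78 in PGCs and 95.7 and 64.0 in PGCLCs. Lin28b was at 4.18 and 5.36 in EGCs and 0.925 and 0.689 in iPGCs.

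Of 22 tested naive pluripotency genes, 5 (22.7%) lay above and 8 (36.4%) below, and 0 were called. Zfp42, the Rex1 marker of naive stem cells, was at 17.0 and 25.1 FPKM in EGCs and 4.71 and 9.22 in iPGCs (1.5 ± 0.59, limma adjusted p = 0.435). Klf2 was at 5.14 and 9.13 against 38.1 and 31.7 (-2.18 ± 0.76), and Esrrb, an orphan nuclear receptor of naive cells, at 22.9 and 20.6 against 51.0 and 43.0 (-1.07 ± 0.41). Primed epiblast genes had a median of 0.77 relative to all genes over 17 tested. Of these, 4 (23.5%) lay above and 5 (29.4%) below, beside 10.8% and 39.5% of all genes. The relative median ran from -0.01 to 1.40 over the 4 pairs of 1 EGC and 1 iPGC library. The Nodal antagonist Lefty1 was at 32.6 and 31.8 in EGCs and 2.99 and 1.84 in iPGCs (3.30 ± 0.74, limma adjusted p = 0.266), and Nodal itself at 27.5 and 8.47 against 7.18 and 6.69. Dnmt3b, a de novo DNA methyltransferase, was at 66.1 and 38.8 against 21.3 and 14.5 (1.48 ± 0.76). Krt18 was lower, at 4.73 and 2.35 against 30 and 19.5.

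Imprinted genes did not share a direction. Of 16 tested maternally expressed genes, 1, Mirg, was called higher, 4 (25%) lay above and 9 (56.2%) below. Of 22 paternally expressed genes, 0 were called, 7 (31.8%) lay above and 7 (31.8%) below. Over all genes these shares were 10.8% above and 39.5% below. The medians relative to all genes were -0.38 for the maternally and 0.22 for the paternally expressed genes. Igf2, the paternally expressed growth factor, was at 48.6 and 47.6 FPKM in iPGCs and at 0.0907 and 0.396 in EGC lines 4 and 7 (-5.31 ± 1.31, limma adjusted p = 0.293). Its neighbour H19, a maternally expressed non-coding RNA under the same control region, was at 35.7 and 43.4 against 0.615 and 9.82 (-3.27 ± 0.86, adjusted p = 0.294). Both were thus lower in EGCs, and the lines differed from each other in H19. PGCs had 81.0 and 9.13 of Igf2 and 111 and 49.4 of H19, and PGCLCs 4.24 and 87.7 of Igf2 and 117 and 244 of H19. Cdkn1c, a maternally expressed cell cycle inhibitor, was at 8.35 and 7.98 in iPGCs and 0.263 and 0.316 in EGCs. Zdbf2, expressed from the paternal copy, lay higher, at 15.5 and 12.4 in EGCs against 3.75 and 1.52 (2.11 ± 0.67, adjusted p = 0.362). Peg3 overlapped, at 28.3 and 13 in EGCs and 25.1 and 22.2 in iPGCs, and Snrpn was at 25.2 and 22.7 against 19.5 and 14.4.

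Genes of glycolysis and of oxidative phosphorylation had medians of opposite sign relative to all genes. Of 27 tested glycolysis and glucose transport genes, 10 (37%) lay above in both EGC lines and 6 (22.2%) below. Over all genes these shares were 10.8% above and 39.5% below. Of the 27, 0 were called, and their median was 0.81 relative to all genes. The lactate dehydrogenase subunits ran in opposite directions. Ldha, which favours lactate production, was at 175 and 185 FPKM in EGCs and 78.3 and 38.1 in iPGCs (1.70 ± 0.57, limma adjusted p = 0.370), and Ldhb at 139 and 99.6 against 779 and 436 (-2.30 ± 0.54, adjusted p = 0.286). Pfkfb3, which makes the activator of phosphofructokinase, was at 41.2 and 10.8 against 1.11 and 1.91 (3.17 ± 0.76, adjusted p = 0.289). The lactate exporter Slc16a3 was at 46.7 and 11 against 3.95 and 2.69, with EGC line 4 well above line 7 in both of these genes. Of 33 oxidative phosphorylation genes, 26 (78.8%) lay below and 0 above, beside the 39.5% and 10.8% of all genes. Of the 33, 0 were called, and their median was -0.45 relative to all genes. Atp5d, a subunit of the ATP synthase rotor, was at 30.4 and 37.8 against 128 and 158 (-2.04 ± 0.45, adjusted p = 0.266), and Cox6a1 of cytochrome oxidase at 112 and 107 against 316 and 334.

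Markers of other cell types moved with these differences to varying degrees, and their part in the results was not tested. Of 20 fibroblast markers, which would mark feeder cells, 4 entered the test and 0 were called. They summed to 9.59 and 6.30 FPKM in EGC lines 4 and 7 and to 8.46 and 9.23 in iPGCs, and 8, with the collagen genes Col1a2 and Col3a1 among them, were listed at 0 in all 4 libraries. Trophoblast genes, of which Tfap2c is also an early PGC gene, lay below in both EGC lines for 13 of 16 (81.2%). The share below over all genes was 39.5%. Trophoblast genes summed to 58.3 and 75.5 in EGCs and 169 and 140 in iPGCs, with a median of -0.71 relative to all genes. Krt7, Krt8, Esx1, Cdx2 and Gcm1, all below, passed the filter on low values only with an iPGC library counted. The share of trophoblast genes below and their median therefore depend in part on that filter. Krt18, Esx1 and Sct were the members with the largest differences beside Tfap2c. Esx1, an X-linked placental homeobox gene, was at 8.07 and 7.74 in iPGCs, 1.51 and 0.281 in EGCs, and at or under 0.16 in the other 4 libraries. Extraembryonic endoderm genes lay below for 10 of 19 (52.6%) and summed to 82.0 and 118 in EGCs and 226 and 208 in iPGCs. The largest member in iPGCs was Sparc, at 103 and 84.5, against 13.3 and 36.6 in EGCs and 76.6 and 124 in PGCs. In EGCs the largest was Lamc1, at 40.7 and 42.9, against 45.5 and 40.4 in iPGCs. The transcription factor genes Gata4, Gata6, Sox17 and Foxa2 were under 1 FPKM in both iPGC libraries and did not enter the test. Other members were present in iPGCs. Dab2 was at 12.9 and 9.92 in iPGCs and 0.173 and 1.11 in EGCs (-2.97 ± 0.69, limma adjusted p = 0.28). Cubn was at 4.31 and 2.21 in iPGCs and listed at 0 in both EGC lines. Apoa2 was the 1 tested member with both EGC values above, at 7.76 and 8.61 against 0 and 2.44. Cited1 was at 5.42 and 9.69 in iPGCs and listed at 0 in both EGC lines and in PGCs (-3.05 ± 0.51, limma adjusted p = 0.129). It passed the filter on low values only through the iPGC libraries. The neural genes described with Stmn2 summed to 180 and 144 in EGCs and 71.3 and 66.7 in iPGCs. Mesoderm and Hox genes summed to 7.78 and 6.10 against 29.8 and 15.5. Blood genes summed to 8.30 and 23.3 against 14.1 and 36.8, and endothelial genes to 120 and 29.7 against 66.8 and 63.4, with the 2 lines far apart.

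**Figure D5:**
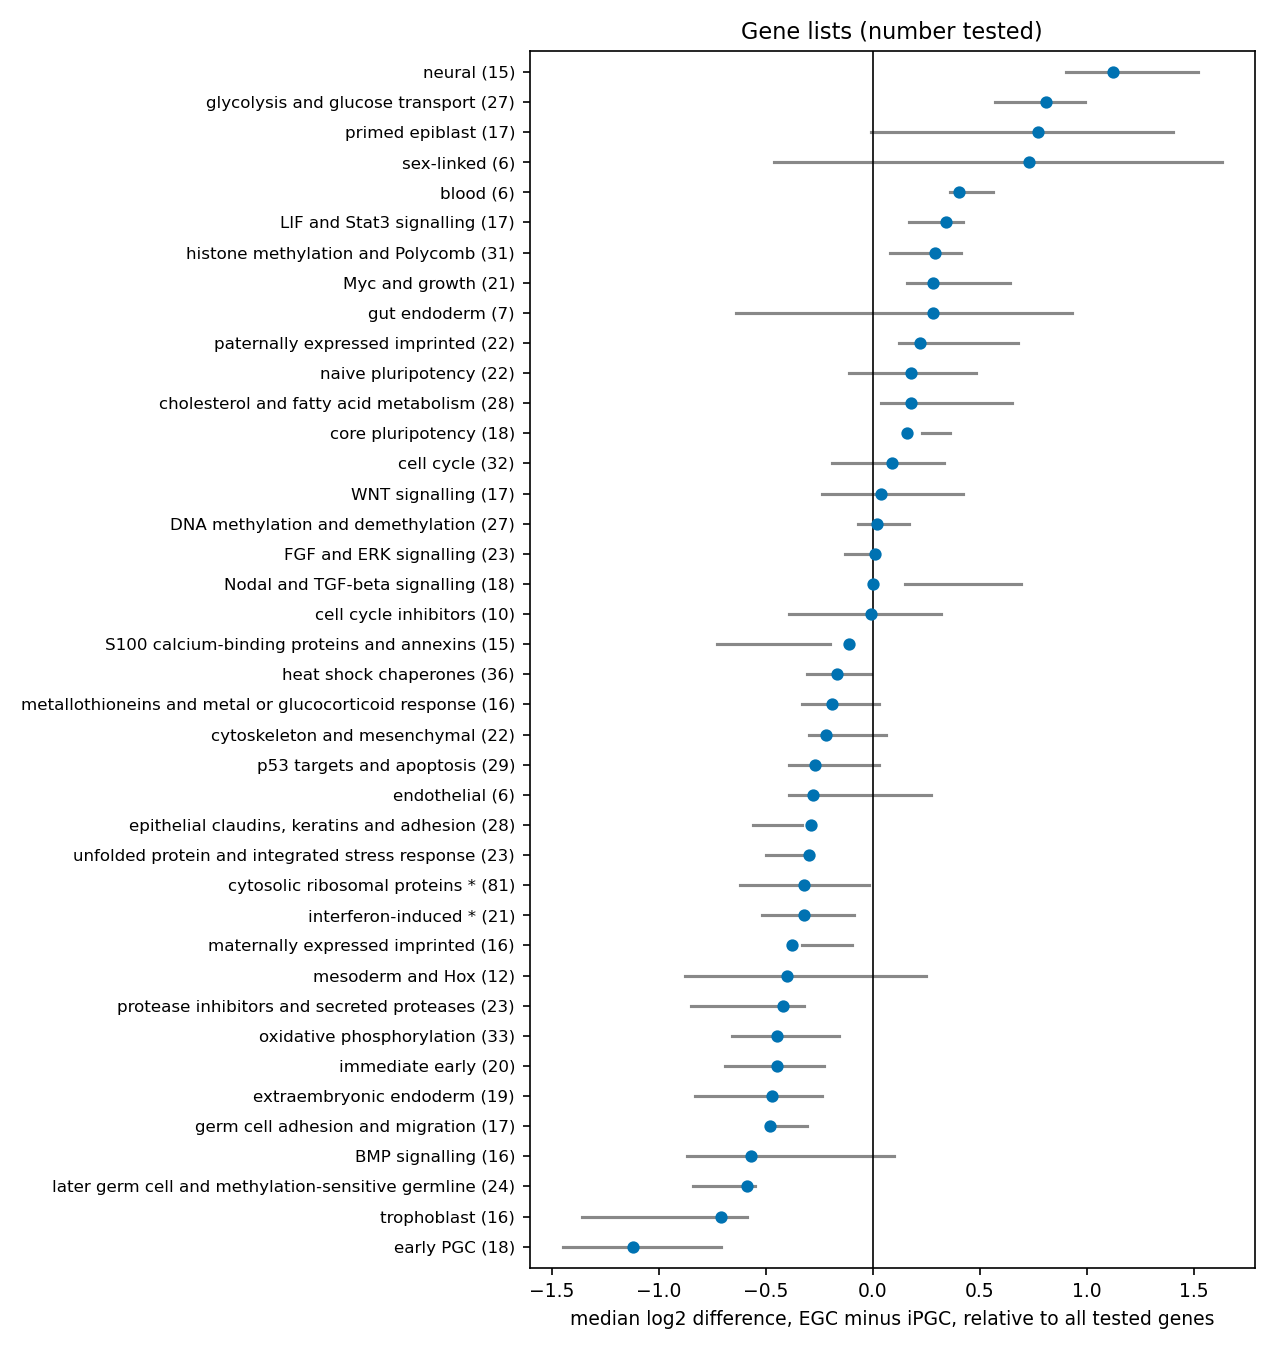
Median log2 difference of each gene list, EGC minus iPGC, after subtracting the median of all tested genes (points), with the number of tested members in brackets. Grey bars span the medians of the 4 pairs of 1 EGC and 1 iPGC library, which need not include the median of the group means, and lists marked * were chosen after values were seen. Neural and glycolysis genes lie at the top, at 1.12 and 0.81, and trophoblast and early PGC genes at the bottom, at -0.71 and -1.12.

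Beyond these groups, the genes with the smallest p above the threshold are given by their values and not as changed. Zc3hav1, an antiviral zinc finger protein that binds CpG-rich RNA, was at 19.6 and 18.5 FPKM in iPGCs and 1.32 and 0.899 in EGCs (-3.25 ± 0.49, limma adjusted p = 0.0884). Rab3b, a small GTPase of vesicle release, was at 10.9 and 24.3 against 0 and 0.213 (-3.98 ± 0.61, adjusted p = 0.0884). AU015836 was at 51.0 and 46.6 against 2.78 and 0.593 (-4.34 ± 0.67, adjusted p = 0.0884). The glutathione transferase gene Gstm3 was at 48.5 and 65.9 against 3.21 and 2.87 (-3.83 ± 0.61, limma adjusted p = 0.102). Ubd, a ubiquitin-like protein induced by interferon, was at 13.1 and 8.24 and listed at 0 in both EGC lines and in PGCs. It passed the filter on low values only through the iPGC libraries. Sdc4, a heparan sulfate proteoglycan, was at 52.0 and 54.8 against 5.22 and 7.71 (-2.89 ± 0.53, adjusted p = 0.212). The transcription factor gene Nfe2l1, which induces proteasome genes, was at 109 and 99.0 against 25.3 and 24.2, with PGCs at 48.2 and 43.6.

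On the higher side, Dok2, an adaptor protein of receptor tyrosine kinases, was at 24.7 and 14.4 FPKM in EGC lines 4 and 7 and 0.825 and 0.762 in iPGCs (3.47 ± 0.69, limma adjusted p = 0.248). Nphs1, the nephrin of kidney podocytes, was at 31.6 and 20.6 against 2.23 and 2.53 (2.98 ± 0.57, adjusted p = 0.242). The secreted WNT modulator Sfrp2 was at 8.56 and 14.7, and at 0.736 in iPGC library 2, the higher of both (3.22 ± 0.65, limma adjusted p = 0.248). Dok2 and Sfrp2 passed the filter on low values only through the EGC lines. Upp1, uridine phosphorylase, was at 115 and 70.1 against 23.6 and 9.37, and at 0.22 and 0.105 in PGCs. The interferon gamma receptor gene Ifngr1 was at 28.4 and 5.11 against 0 and 1.23, with line 4 well above line 7. Nsmaf, an adaptor of the TNF receptor, was at 28.8 and 27.8 against 5.14 and 6.26, close to the 39.4 and 25.7 of PGCs.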

How the data were processed

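RNA from 250 to 1500 cells was amplified with the Ovation RNA-Seq System V2, and 8 libraries were sequenced as 50-base single-end reads in 2 lanes, per the labels' protocols. The authors deposited FPKM with 1 column per library. TopHat2, Cufflinks and the GRCm38 (mm10) build are named in the submitters' processing notes, and no source used here gives versions, annotation, filters or strand use. The deposited FPKM table had 20171 rows for 20153 gene identifiers. For 15 identifiers with several rows the row with the largest mean was kept and 18 rows were dropped. Symbols, positions and lengths of 19747 identifiers came from GENCODE M21 (GRCm38), since 27 symbols had been turned into dates, and microRNA sequences from RefSeq. Read counts were not analysed here, so no count test was used. Spike-in RNA was not analysed here.

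Genes with at least 1 FPKM in at least 2 of the 8 libraries were put on the log2(FPKM + 1) scale and fitted in R 4.3.3 with limma 3.58.1, with its trend and robust options on. The fit covered the 4 groups and so took its spread from all 8 libraries (residual degrees of freedom 4, prior degrees of freedom 4.53 at the median). Two-sided p-values received the Benjamini-Hochberg adjustment over the 11083 genes, and 0.05 was the threshold. The step was tested on simulated data. The labels call the libraries of a group biological replicates but name no separate cultures or embryos, so p-values measure the spread between these libraries. Log differences with a pseudocount of 1 understate the change of low genes, and an exact 0 may be a failed estimate. Intervals are 95% confidence intervals from limma.

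The genes, lists and naming rule were chosen with earlier results of these data known, so no pattern is independent support of those results. Named genes passed the threshold, reached a mean of 10 FPKM in the higher group and did not overlap between groups, and some of the next genes by p, up to 15 in each direction, are given with values only. MicroRNAs, small RNAs, ribosomal protein genes and pseudogenes fell outside that rule and were named after their values were seen, as were host genes, the ribosomal protein list and the interferon list. Of each list the members with the largest differences or its best known members were named. Lists are described by counts and medians with no test. Other settings changed the pseudocount, the filter, the scaling, the variance model or the libraries used.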

Additional observations from a re-analysis of the deposited data

How the results depend on the processing

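No paired analysis was possible because the EGC libraries are numbered 4 and 7 and the iPGC libraries 1 and 2, so the groups share no number. Over 18 settings, 0 of the named genes and counts reversed. The 13 calls became 8 without a filter on low values, when 15250 genes were tested, 2 of them lower in EGCs, where 6 were. There were 3 lower calls without a variance trend and 3 with only the 4 libraries compared. Leaving out 1 library in turn gave 5 to 17 calls, with 3 to 10 higher and 1 to 7 lower. Without genes under 200 bases, chosen after the data were seen, there were 2 calls, 1 higher and 1 lower. The fits that left out 1 library tested the same 11083 genes, so genes that pass the filter only through 1 group were not filtered again. With a library left out, its group has 1 sample, which is assumed to vary like the others. Tdgf1 passed the threshold with a pseudocount of 5 (limma adjusted p = 0.0489), quantile normalization (0.0468) and without PGC library 1 (0.0335) or 2 (0.0363). Adam23 passed it with a pseudocount of 5 (0.0169), quantile normalization (0.0186), equal medians (0.0429) and no variance trend (0.0494), and Gstm3 without PGC library 1 (0.0185) or 2 (0.0206). Of the list medians relative to all genes, 94 of 720 moved by more than the SD over the 4 pairs of libraries. Depth is known only as an estimate, lowest in iPGC library 1.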

Other observations

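Of the interferon-induced genes, a list chosen after values were seen, 21 were tested and 0 called. The list holds Ubd, Zc3hav1 and Ifitm1, already seen to be low in EGCs, so its direction is no separate result. Both EGC values were below both iPGC values for 12 (57.1%, beside 39.5% of all genes) and above for 1. The median was -0.32 relative to all genes. Tap1 was the 1 above, at 3.47 and 1.60 FPKM in EGC lines 4 and 7 and 0.852 and 1.31 in iPGCs. Stat2 overlapped, at 4.94 and 4.06 against 3.88 and 5.44. Ube2l6, the conjugating enzyme of the ubiquitin-like Isg15, was at 5.19 and 6.04 FPKM in iPGCs and listed at 0 in both EGC lines and in PGCs (-2.72 ± 0.54, limma adjusted p = 0.248). Bst2, or tetherin, was at 45.3 and 72.3 against 10.4 and 11.4 (-2.29 ± 0.65, adjusted p = 0.319). In the FGF and ERK signalling list, 3 of 23 tested genes (13%) lay above and 9 (39.1%) below, near the shares of all genes (10.8% and 39.5%), with 0 called. Fgf17 was at 13.6 and 3.25 in EGC lines 4 and 7 and at 0.322 and 0 in iPGCs, and Fgf15 at 6.47 and 2.05 and listed at 0 in both iPGC libraries. The receptor gene Fgfr2 was at 0.358 and 4.94 in EGCs and 16.8 and 17.6 in iPGCs (-2.68 ± 0.69, adjusted p = 0.293). In the Polycomb list, Cbx7 was at 139 and 186 in EGCs and 38.2 and 29.1 in iPGCs, and Suz12 at 51.1 and 39.4 against 131 and 125. The cyclin gene Ccnd1 was at 89.3 and 59.6 against 5.33 and 4.91 (3.60 ± 1.34, adjusted p = 0.422).

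The EGC lines also differed from each other, which has no replicate check. Gzf1 was at 85.9 FPKM in line 4 and 1.84 in line 7, Kcnj13 at 55.3 and 0.877, and Gpx2 at 39.1 and 0.356. In the other direction Pstk was at 0.0778 in line 4 and 24.3 in line 7. The Y-linked genes Eif2s3y, Uty and Ddx3y were listed at 0 in line 4 and at 22.9, 10.9 and 2.40 in line 7. The Y-linked genes Kdm5d and Zfy1 were low in both lines, listed at 0 in line 4 and at 0.0897 and 0.205 in line 7. In iPGC libraries 1 and 2 Eif2s3y was at 9.97 and 7.27. Xist was at 0.601 and 3.27 in EGC lines 4 and 7 and at 0.228 and 0.244 in iPGCs.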
